A study of Mus musculus with 48 samples.

Results

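The machinery that modifies, folds, exports, trims and cross-links collagen was followed as 40 named genes, all of which were among the 32544 genes counted. The genes were chosen by name for their known roles, with earlier results of these data known. They fall into 8 roles, with 4 genes of proline 4-hydroxylation, 5 of lysine hydroxylation and glycosylation, 6 of the proline 3-hydroxylation complexes, 6 ER chaperones including a cation channel, 7 of export from and retrieval to the endoplasmic reticulum (ER), 2 ER stress transducers, 5 of propeptide removal and 5 lysyl oxidases. RNA was sequenced from the tibial metaphysis, the flared trabecular end of the shin bone next to the growth plate. The animals were 19-week-old males of CAST/EiJ, NOD/ShiLtJ, PWK/PhJ, 129S1/SvImJ, NZO/HlLtJ, C57BL/6J, WSB/EiJ and A/J, 3 mice per strain and no allele or agent beyond the strain itself. In each mouse the left hindlimb was the immobilized limb, after 3 weeks in a cast, and the right hindlimb of that mouse served as its control limb. Since every cast limb was a left limb, side and cast cannot be told apart, and the control limb belonged to an animal that wore a cast on its other side.

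Fibrillar collagen is made as a procollagen whose prolines and lysines are hydroxylated in the ER before the triple helix closes. Prolyl 4-hydroxylation stabilises the helix, lysyl hydroxylation sets where sugars and later cross-links attach, and chaperones such as HSP47 hold the helix together until it leaves the ER in large COPII carriers. Outside the cell, proteinases cut off the propeptides and lysyl oxidases cross-link the fibril. In bone, osteoblasts do most of this work, and inherited loss of many of these genes in humans causes brittle bone disease or a related disorder of connective tissue.

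Of the 48 libraries, 46 were usable, with 5253408 to 14744056 counts each and a median of 7593532. The control libraries of A/J replicates 2 and 5 held 2335 and 50 counts in all, and were left out of every value, so that the A/J limb effect rests on 1 mouse and the paired comparisons on 44 libraries from 22 mice. The 3 NZO/HlLtJ immobilized libraries were the deepest, with 13410118 to 14744056 counts, against 7746981 to 7857780 in NZO/HlLtJ control libraries. All 12 osteoblast markers were detected in every strain, and their summed level ran from 2568 to 23460 CPM (counts scaled to library size with TMM factors) in immobilized limbs and from 1245 to 10930 CPM in control limbs. Of these markers, Bglap2 was nearly absent from some libraries, with lowest levels of 0.136 CPM in immobilized and 0 CPM in control limbs. Skeletal muscle markers were present too, at 27.9 to 26190 CPM in sum in immobilized limbs and 76.2 to 75030 CPM in control limbs. In 2 control libraries the members stood high together: the 40 members summed to 8726 CPM in NZO/HlLtJ replicate 4 and to 6529 CPM in A/J replicate 1, against 2126 to 4560 CPM in the other 20 control libraries. The NZO/HlLtJ replicate 4 control library also had the least Hba-a1, an erythroid marker, of the control libraries. It held 234.8 CPM, against a median of 18690 CPM, so its cell content differed too.

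Averaged over the 8 strains, 24 of the 40 members were higher in immobilized limbs and 0 were lower, at an FDR (Benjamini-Hochberg adjusted p) under 0.05 in edgeR's quasi-likelihood test with mice as blocks; 4.58% of the 16882 genes tested were higher and 2.86% lower. At an unadjusted p under 0.05, 29 members were higher and 1, Colgalt1, was lower, against 13.3% and 9.85% of all genes, and DESeq2 called 27 higher and 1 lower. The median log2 change over the 40 members was 0.45, against 0.0095 over all genes tested, and 37 of the 40 estimates were positive. The called members were 4 of 5 propeptide removal genes, 6 of 7 export and retrieval genes, 4 of 6 ER chaperone and channel genes, 4 of 6 genes of the proline 3-hydroxylation complexes, 2 of 5 lysine modifying enzymes, 2 of 5 lysyl oxidases, 1 of 4 proline 4-hydroxylation genes and 1 of 2 stress transducers. Averaged over the 6 strains other than CAST/EiJ and NOD/ShiLtJ, a choice made after seeing the data, edgeR called 0 members at that FDR and 10 at an unadjusted p under 0.05. At the FDR it called 0.172% of all genes, so that 0 of 40 lies near the share of all genes. The share of all genes at the unadjusted p is not given here, so the 10 cannot be set against it. The A/J pair weighs on the size of the mean: without that mouse 33 members were higher and 1, Colgalt1, lower, with a median log2 change of 0.64. Of the called members, Adamts2 (0.90 without it), Bmp1 (1.11), Creb3l1 (1.29), Pcolce (0.97), Plod2 (1.05), Adamts14 (0.64) and Sec24d (0.64) then had estimates over 1.5 times those given here. In bulk tissue, fewer cells of a type and less RNA per cell cannot be told apart, and the same holds for more.

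**Figure D1:**
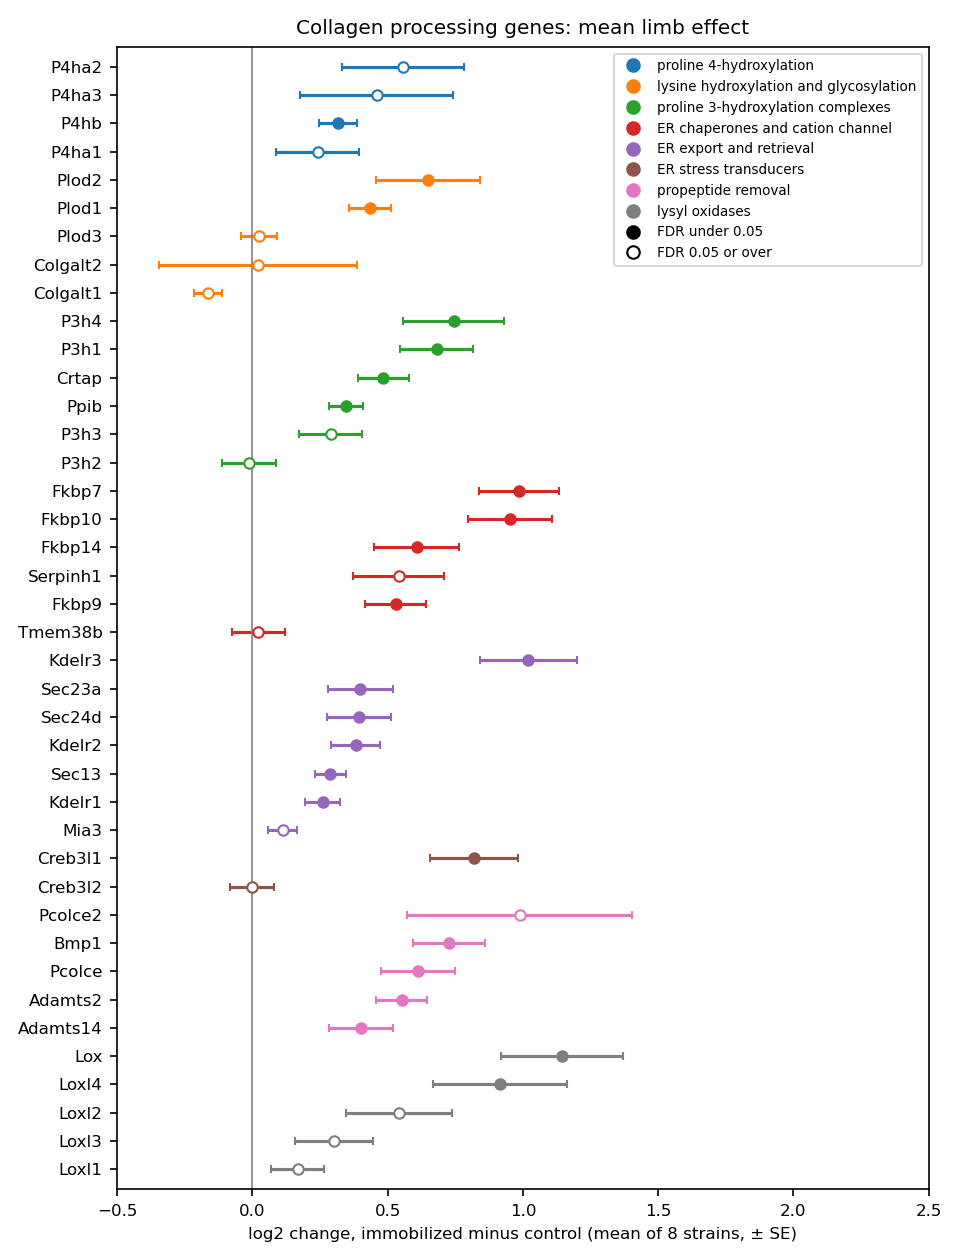
Log2 change of each of the 40 members, immobilized over control limb, averaged over 8 strains (horizontal axis), with genes down the page in their roles; points are edgeR estimates, bars are 1 standard error, and filled points passed an FDR of 0.05. The estimates run from -0.16 for Colgalt1 to 1.15 for Lox, and 24 filled points all lie right of 0.

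Lox, the lysyl oxidase that starts cross-linking of collagen and elastin, had the largest mean change among the members. Across the 22 mice its lowest, median and highest levels were 74.6, 269.7 and 1132 CPM in immobilized limbs, against 32.6, 99.0 and 586 CPM in control limbs. In 20 of 22 mice the cast limb had more Lox, and the log2 change was 1.15 ± 0.23 (SE; FDR 0.00921). The ranges of the limbs overlapped, while within a mouse the cast limb was nearly always the higher. Loxl4, a paralogue in the same family, rose by 0.92 ± 0.25 (FDR 0.0350), with a median of 24.7 CPM in immobilized limbs and 12.7 CPM in control limbs. Loxl2, an oxidase best known for acting on basement membrane collagen IV, had a log2 change of 0.54 ± 0.20 (FDR 0.102), which was 1.12 (FDR 0.0009) without the A/J pair, and Loxl1, which acts in elastic fibre assembly, one of 0.17 ± 0.097 (FDR 0.322). Loxl3, a paralogue with 11.6% of its exon bases shared with another gene (Htra2 on the opposite strand for the most part), had one of 0.30 ± 0.14 (FDR 0.217).

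Among the propeptide removal genes, Bmp1, the C-proteinase that cuts the C-propeptide and also activates lysyl oxidase, was at 107.6, 252.3 and 1105 CPM (lowest, median, highest) in immobilized limbs and at 52.9, 134.7 and 450.9 CPM in control limbs. It was higher in 20 of 22 mice, by 0.73 ± 0.13 on the log2 scale (FDR 0.00569). Adamts2, the main N-proteinase of procollagen I, rose by 0.55 ± 0.095 (FDR 0.00446) and was higher in 19 of 22 mice, with medians of 213.9 CPM in immobilized and 128.6 CPM in control limbs. Both enzymes act on the ends of the procollagen molecule. Pcolce, which enhances the C-proteinase, rose by 0.61 ± 0.14 (FDR 0.0155), and Adamts14, a second N-proteinase, by 0.40 ± 0.12 (FDR 0.0449). Pcolce2, the scarcer enhancer, had an estimate of 0.99 ± 0.41 that did not pass (FDR 0.157); its counts went down to 1 in a library, and its median was 7.03 CPM in immobilized and 2.98 CPM in control limbs.

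Of the ER chaperones, Fkbp10 (FKBP65), a prolyl isomerase that binds procollagen and whose loss in humans causes brittle bones, was at 62.3, 194.7 and 590.5 CPM in immobilized limbs and at 30.8, 85.4 and 357.9 CPM in control limbs. It was higher in 20 of 22 mice, by 0.95 ± 0.16 (FDR 0.00345). Fkbp7, a smaller isomerase of the same family, had the smallest FDR of the 40 members, with a log2 change of 0.99 ± 0.15 (FDR 0.00289) and medians of 55.4 CPM in immobilized and 24.9 CPM in control limbs. Of the other 2 FKBP genes among the members, Fkbp9 rose by 0.53 ± 0.11 (FDR 0.0126) and Fkbp14 by 0.61 ± 0.16 (FDR 0.0278). Fkbp2, an ER isomerase of the same family that was not a member, had an estimate of 0.13 ± 0.068 (FDR 0.286) and was higher in 9 of 22 mice. Serpinh1 (HSP47), the chaperone dedicated to the collagen triple helix, had a log2 change of 0.54 ± 0.17 that just missed the threshold (FDR 0.0588), with 431.2 CPM at the median in immobilized limbs and 273.9 CPM in control limbs; it passed in DESeq2 (0.53, adjusted p 0.0131). Tmem38b (TRIC-B), the cation channel of the ER membrane, had an estimate of 0.022 ± 0.098 (FDR 0.984).

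The proline 3-hydroxylation complex of Crtap, P3h1 and cyclophilin B (Ppib) was higher in all 3 of its parts. P3h1, its enzyme, rose by 0.68 ± 0.14 (FDR 0.00988), Crtap, its helper subunit, by 0.48 ± 0.094 (FDR 0.00824) and Ppib, which is also a general ER isomerase, by 0.35 ± 0.063 (FDR 0.00569). The medians in immobilized limbs were 71.6 CPM for P3h1, 94.3 CPM for Crtap and 296.3 CPM for Ppib, against 42.5, 60.4 and 224.7 CPM in control limbs. Ppib shares 25.0% of its exon bases with Snx22 on the opposite strand, so its count is less certain, the strand setting of the counting being not given in the sources used here. P3h4, a scaffold that works with P3h3 and lysyl hydroxylase 1, rose by 0.74 ± 0.19 (FDR 0.0255). P3h3 itself had an estimate of 0.29 ± 0.12 (FDR 0.136), and P3h2, a 3-hydroxylase linked to basement membrane collagen, one of -0.012 ± 0.099 (FDR 1). P3h2 shares 28.4% of its exon bases with an antisense gene. P3h4 (chr11:100408456-100414836, minus strand) and Fkbp10 (chr11:100415697-100424824, plus strand; GENCODE M21 on GRCm38) are neighbours that are read away from each other.

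Among the hydroxylases, Plod1, which acts on helical lysines, rose by 0.43 ± 0.077 (FDR 0.00506), with medians of 66.3 CPM in immobilized and 46.9 CPM in control limbs. Plod2, the telopeptide lysyl hydroxylase that directs collagen to the cross-links typical of bone, rose by 0.65 ± 0.19 (FDR 0.0498), and passed in 7 of the 22 fits that left out 1 mouse. Plod3, which is also a glycosyltransferase, had an estimate of 0.023 ± 0.067 (FDR 0.931). Colgalt1, the galactosyltransferase that acts on hydroxylysine, was at 61.0, 91.0 and 141.3 CPM in immobilized limbs and at 79.7, 105.7 and 183 CPM in control limbs. In 17 of 22 mice the cast limb had less Colgalt1, with a log2 change of -0.16 ± 0.051 that did not pass in edgeR (FDR 0.0604) and did in DESeq2 (-0.17, adjusted p 0.0214). Colgalt2 was near the lower end of detection, at 3.19 CPM at the median in immobilized and 2.23 CPM in control limbs, with an estimate of 0.019 ± 0.37 (FDR 1).

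Of the prolyl 4-hydroxylase genes, P4hb, the beta subunit that is also protein disulfide isomerase, rose by 0.32 ± 0.070 (FDR 0.0146) and was higher in 19 of 22 mice. Its levels were 544.1, 709.7 and 1058 CPM in immobilized limbs and 486.7, 573.2 and 1107 CPM in control limbs. The catalytic alpha subunits did not pass: P4ha1 had 0.24 ± 0.15 (FDR 0.372), P4ha2 0.56 ± 0.23 (FDR 0.142) and P4ha3 0.46 ± 0.28 (FDR 0.357). Set per kilobase of exon, so that genes can be compared, the mean level was highest for P4hb (264 CPM per kb in immobilized and 212 in control limbs), Serpinh1 (212 and 141) and Ppib (93.4 and 72.4). Lox stood at 67.3 CPM per kb in immobilized and 34.2 in control limbs. The lowest were Colgalt2 (0.965 and 0.936 CPM per kb), P4ha3 (1.71 and 1.36) and Pcolce2 (2.03 and 0.793).

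Creb3l1 (OASIS), a membrane-bound transcription factor of the ER that is known in mouse osteoblasts to drive Col1a1, rose by 0.82 ± 0.16 (FDR 0.00988). Its levels were 19.9, 56.2 and 267.1 CPM in immobilized limbs and 10.3, 27.8 and 116.8 CPM in control limbs, higher in 17 of 22 mice. Its relative Creb3l2 (BBF2H7), known in mouse cartilage for driving the COPII coat gene Sec23a, had an estimate of -0.0014 ± 0.082 (FDR 1).

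In the export and retrieval group, 6 of 7 genes passed. Kdelr3, 1 of the 3 receptors that return proteins with a KDEL-like tail, HSP47 among them, to the ER, had the second largest mean change of the members. Its lowest, median and highest levels were 16.1, 47.8 and 178.2 CPM in immobilized limbs and 7.43, 22.5 and 142.2 CPM in control limbs. It was higher in 19 of 22 mice, by 1.02 ± 0.18 on the log2 scale (FDR 0.00506). Its paralogues passed with smaller estimates: Kdelr1 rose by 0.26 ± 0.064 (FDR 0.0235) and Kdelr2 by 0.38 ± 0.089 (FDR 0.0187). Of the COPII coat genes, Sec13 of the outer coat rose by 0.29 ± 0.058 (FDR 0.00988), and the inner coat genes Sec23a and Sec24d by 0.40 ± 0.12 (FDR 0.0488) and 0.39 ± 0.12 (FDR 0.0483). Sec23a passed in 3 of the 22 fits that left out 1 mouse, Sec24d in 6, Adamts14 in 7 and Loxl4 in 13, while 19 of the 24 called members passed in all 22. Mia3 (TANGO1), the receptor that loads collagen into carriers, had an estimate of 0.11 ± 0.054 (FDR 0.223).

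The 4 member promoters that hold the letters TGACGTG, on either strand, all belonged to this export and retrieval group, and are shown because the letters are the core of an element that ER stress transducers bind. Promoters were read from RefSeq (GRCm38.p6) as 250 bases before to 50 after each start, with 30 promoters for 27 of the 40 members. TGACGTG was in 4 of these 30 (13.3%), against 661 of 32851 promoters (2.01%) in all, 1 of 20 (5.0%) of general ER folding and stress genes and 1 of 8 (12.5%) of fibrillar collagen chains. It began 86 bases before the start in Mia3, 26 before in Sec24d and 29 before in Kdelr3, where it lies on the opposite strand and so reads CACGTCA, and 6 bases after it in Sec23a. Each line gives 120 bases before the start and the first 30 from it on, with the match in capitals, for Kdelr3 at chr15:79516288-79516437 (plus strand), Mia3 at chr1:183369536-183369685 (minus strand), Sec23a at chr12:59011988-59012137 (minus strand) and Sec24d at chr3:123267376-123267525 (plus strand).
Kdelr3: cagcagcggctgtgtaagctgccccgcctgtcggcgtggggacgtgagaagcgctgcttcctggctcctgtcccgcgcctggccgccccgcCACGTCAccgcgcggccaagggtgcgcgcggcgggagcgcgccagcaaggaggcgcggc
Mia3: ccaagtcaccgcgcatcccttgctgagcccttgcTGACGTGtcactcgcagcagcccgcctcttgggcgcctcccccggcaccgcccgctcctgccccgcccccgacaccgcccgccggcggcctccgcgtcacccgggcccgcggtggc
Sec23a: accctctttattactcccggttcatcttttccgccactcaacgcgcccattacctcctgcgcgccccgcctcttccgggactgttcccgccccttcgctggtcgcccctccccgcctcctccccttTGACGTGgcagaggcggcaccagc
Sec24d: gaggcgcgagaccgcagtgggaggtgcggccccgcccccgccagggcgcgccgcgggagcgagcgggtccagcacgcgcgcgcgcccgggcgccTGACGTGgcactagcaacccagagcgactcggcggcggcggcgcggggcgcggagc
Kdelr3, Sec23a and Sec24d passed the mean limb test and Mia3 did not. The longer ER stress element, CCAAT and CCACG with 9 bases of any kind between them, searched on both strands, was in 0 of the 30 member promoters and in 7 of 20 promoters (35.0%) of general ER folding and stress genes, against 0.119% of all promoters. The shorter one, ATTGG and CCACG with 1 base between, was in 0 member promoters, 2 of the 20 general ER promoters and 0.0365% of all, and the cyclic AMP element, TGACG followed by TCA, in 0 member promoters and 1.79% of all. A match describes letters in this window and is neither a binding site nor a cause; the motifs were chosen with results of these data known.

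The general ER folding and stress genes are the chaperones and sensors used by all secreted proteins. Of 23, 0 passed the mean limb test in edgeR, where 7.43% of all genes passed in either direction. With 23 genes, 0 lies near that share. At an unadjusted p under 0.05 it was 3, against 23.2% of all genes. By strain, edgeR called 3 lower in CAST/EiJ (5.47% of all genes), 2 higher in NOD/ShiLtJ (5.55%) and 2 higher in A/J (2.71%). In the mean limb test the median log2 change of the 23 genes was 0.034. Hspa5 (BiP), the main ER chaperone, had an estimate of 0.030 ± 0.064 and Calr (calreticulin), the most abundant of the list per kilobase of exon, 0.032 ± 0.060. The collagen chains themselves moved in the direction of the machinery, with 7 of 11 fibrillar chain genes higher and a median log2 change of 0.74. Col1a1, a chain of type I collagen, was at 16460 CPM at the median in immobilized and 6761 CPM in control limbs, and rose by 1.08 ± 0.22 (FDR 0.0112), in 18 of 22 mice. Col5a1, Col5a2, Col1a2, Col11a1, Col11a2 and Col3a1 were the other 6. Of 23 tested genes in a further list of collagen processing and COPII genes, 3 rose: the ER isomerase Fkbp11 by 1.04 ± 0.14 (FDR 0.000884), the cargo receptor Surf4 by 0.30 ± 0.063 (FDR 0.0119) and the N-proteinase Adamts3 by 0.65 ± 0.16 (FDR 0.0232).

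Markers of several cell types moved with the limb as well. Of 12 osteoblast markers 6 were higher, with a median log2 change of 0.55, and their summed median was 6618 CPM in immobilized and 3842 CPM in control limbs. Ibsp, a bone matrix sialoprotein, led them with 1.13 ± 0.26 (FDR 0.0172). With the mean log2 level of the 12 osteoblast markers added as a covariate, 1 member was called higher, Fkbp7 (0.46, FDR 0.0481), and 44 of all genes tested (0.261%) were called. Of 8 osteoclast markers 5 were higher (median log2 change 0.72; summed median 5004 CPM in immobilized and 2844 CPM in control limbs), and of 10 markers of fibrous tissue and tendon 2, Lum and Dcn. Of 15 skeletal muscle markers 11 were lower, with a median of -2.08; with their mean level as the covariate, 22 members were higher, 18 of them among the 24. Of 8 B cell markers 3 were lower, where 2.86% of all genes were, and 7 were lower at an unadjusted p under 0.05, where 9.85% were. Their median log2 change was -0.42, and their summed level was 70.8 to 501.6 CPM in immobilized and 96.6 to 608.7 CPM in control limbs. Of 8 growth plate chondrocyte markers tested 0 passed the FDR in edgeR, and 4 were higher at an unadjusted p under 0.05, where 13.3% of all genes were. Their median log2 change was 1.47, and their summed level was 16.3 to 1518 CPM in immobilized and 15.6 to 564.6 CPM in control limbs. Since osteoblast markers rose and muscle markers fell with the limb, the covariate fits cannot separate cell content from the members' own change. The parts of these and of the other cell types named here in the members' result were not tested.

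**Figure D2:**
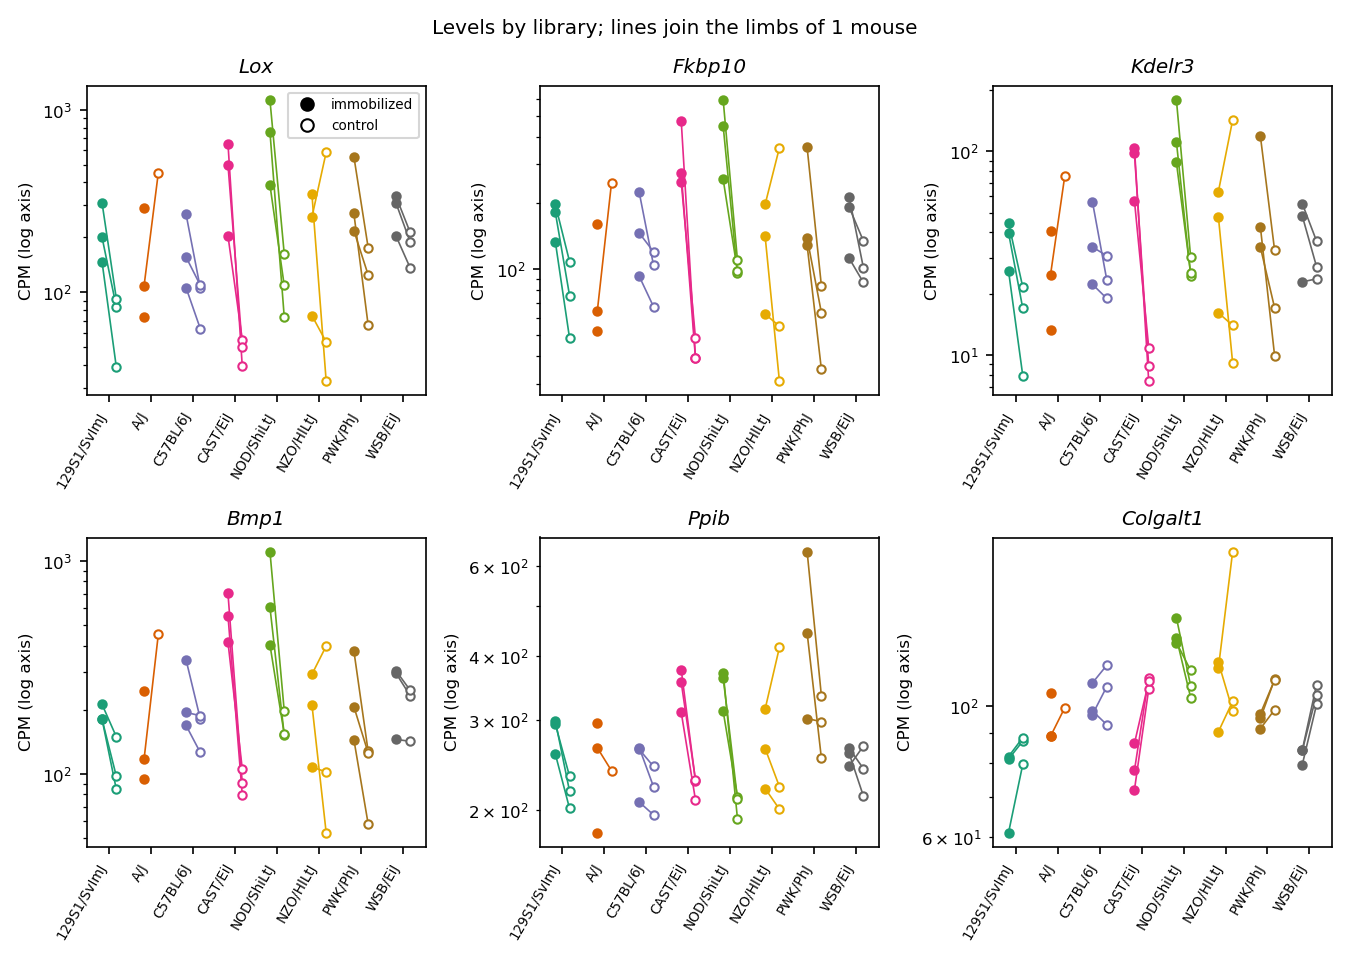
Levels of Lox, Fkbp10, Kdelr3, Bmp1, Ppib and Colgalt1 in CPM (log axis) in each strain; filled points are immobilized limbs, open points control limbs, and lines join the limbs of 1 mouse. In CAST/EiJ and NOD/ShiLtJ all 3 filled points lie above all 3 open points for the first 5 genes, while NZO/HlLtJ replicate 4 and the A/J pair run the other way for Lox, Fkbp10, Kdelr3 and Bmp1.

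CAST/EiJ showed the widest response. In this strain 32 members were higher and 1 lower in immobilized limbs, where 8.38% of all genes were higher and 5.47% lower, and the median member log2 change was 1.72. Lox had 204.1, 653 and 500.4 CPM in the immobilized limbs of replicates 2, 3 and 4, against 55.1, 39.5 and 50.4 CPM in their control limbs, a log2 change of 3.09 ± 0.60 (FDR 0.00355). Kdelr3 had 57.2, 103.6 and 97.5 CPM in immobilized limbs, against 10.9, 7.43 and 8.86 CPM in control limbs (3.22 ± 0.47, FDR 0.000581). Creb3l1 had 86.3, 206.4 and 120.7 CPM in immobilized limbs, against 17.7, 13.6 and 12.1 CPM in control limbs (3.18 ± 0.44, FDR 0.000436). For these 3 genes every immobilized limb stood above every control limb, and replicate 2 had the smallest difference. The smallest FDR was that of Adamts2, at 294, 446 and 355 CPM in immobilized limbs against 77.8, 73.1 and 68.1 CPM in control limbs (2.30 ± 0.25, FDR 7.87e-05). Crtap (1.88 ± 0.24), Bmp1 (2.58 ± 0.35), Fkbp10 (2.93 ± 0.41), Fkbp7 (2.75 ± 0.39), Pcolce (2.49 ± 0.36), Fkbp9 (1.94 ± 0.29) and Adamts14 (1.89 ± 0.30) followed. Colgalt1 was the member that fell, at 77.8, 72.1 and 86.4 CPM in immobilized limbs against 111.8, 106.9 and 110.1 CPM in control limbs (-0.48 ± 0.13, FDR 0.0204). P4hb, Pcolce2, P4ha3, Colgalt2, Plod3, P3h2 and Tmem38b did not pass. The count of members higher was 16 without replicate 3 and 16 without replicate 4; the fall of Colgalt1 did not pass without any 1 of the 3 mice. Of the 12 osteoblast markers 9 were higher in this strain (median 2.33; summed level 9934 to 14090 CPM in immobilized and 2445 to 3752 CPM in control limbs), and with their level as covariate edgeR called 0 members higher and 11 members at an unadjusted p under 0.05, and 0.0415% of all genes. Of other cell types, 3 of 10 fibrous tissue markers (Dcn, Scx, Lum), 2 of 8 adipocyte markers (Fabp4, Plin1), 2 of 8 endothelial markers (Cldn5, Emcn) and 1 of 8 osteoclast markers (Ocstamp) were higher in CAST/EiJ, and 2 of 8 B cell markers and 1 endothelial marker (Vwf) lower. Summed B cell markers stood at 178.1 to 231.7 CPM in CAST/EiJ immobilized and 382 to 608.7 CPM in control limbs. The part of these cell types, and of osteoblasts, was not tested.

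In NOD/ShiLtJ, a strain prone to autoimmune diabetes, 26 members were higher and 0 lower, where 5.55% of all genes were higher and 2.78% lower, and the median member log2 change was 1.32. Lox had 759, 388 and 1132 CPM in the immobilized limbs of replicates 4, 5 and 6, against 73.6, 109.2 and 163 CPM in control limbs (2.66 ± 0.58, FDR 0.0132). Bmp1 had 606, 404 and 1105 CPM in immobilized limbs, against 152.6, 154 and 197.9 CPM in control limbs (1.95 ± 0.34, FDR 0.00785). The groups did not overlap for either gene, and replicate 5 was the lowest of the immobilized limbs for both. Kdelr2 (1.32 ± 0.23), Crtap (1.32 ± 0.24) and Adamts2 (1.38 ± 0.25) had the same FDR of 0.00785, followed by P3h1 (1.83 ± 0.35), Creb3l1 (2.21 ± 0.42), Sec13 (0.75 ± 0.15), Fkbp7 (1.90 ± 0.37) and Fkbp9 (1.46 ± 0.29). P4hb passed here, with 0.76 ± 0.18 (FDR 0.0164). Colgalt1 had an estimate of 0.29 ± 0.13 (FDR 0.171), the opposite sign to that in CAST/EiJ. The calls of this strain changed when 1 mouse was left out: edgeR called 0 members without replicate 4, 0 without replicate 6 and 23 without replicate 5. At an unadjusted p under 0.05 it was 30 members without replicate 4 and 29 without replicate 6, against 31 in the main fit. The shares of all genes in these fits are not given here, so the losses cannot be read as particular to the members. Of the 12 osteoblast markers 9 were higher (median 1.92; summed level 9549 to 23460 CPM in immobilized and 3512 to 4763 CPM in control limbs), and with their level as covariate 0 members were called higher by edgeR and 3 had an unadjusted p under 0.05, and of all 16882 genes tested it called 0. Of 8 osteoclast markers 4 were higher in this strain too (Ocstamp, Dcstamp, Ctsk, Acp5), and the adipocyte marker Plin4 and the muscle marker Myh2 were lower. The part of these cell types, and of osteoblasts, was not tested. Summed muscle markers were at 2292 to 8515 CPM in NOD/ShiLtJ immobilized and 16790 to 75030 CPM in control limbs.

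In PWK/PhJ edgeR called 0 members, where 0.0889% of all genes passed, and DESeq2 called 12 higher, with 94 of all genes higher and 0.74% called in either direction. At an unadjusted p under 0.05, 29 members were higher, against 7.41% of all genes. The median member log2 change was 0.91 and 38 of 40 estimates were positive. Adamts2 had the smallest p, with 294, 218.5 and 210.8 CPM in the immobilized limbs of replicates 3, 4 and 6 against 130.0, 76.9 and 134.5 CPM in control limbs (1.11 ± 0.24, FDR 0.106). Fkbp10 had 359, 128.5 and 138.5 CPM in immobilized limbs, against 83.8, 34.8 and 63.2 CPM in control limbs (1.71 ± 0.40, FDR 0.135). Every immobilized limb lay above every control limb for both genes. Without replicate 6, edgeR called 4 members higher, and without replicate 3 the members at an unadjusted p under 0.05 numbered 14.

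In the remaining inbred strains with 3 pairs, edgeR called 0 members in 129S1/SvImJ, NZO/HlLtJ, C57BL/6J and WSB/EiJ, and so did DESeq2; edgeR called no gene at all in 129S1/SvImJ (0%) and 0.00592% of all genes in each of the other three. In 129S1/SvImJ 9 members had an unadjusted p under 0.05, all higher, against 2.74% of all genes: Creb3l1, Fkbp10, P3h1, Lox, Kdelr3, Fkbp7, Bmp1, Ppib and Pcolce. Lox in that strain had 200.1, 309 and 146.6 CPM in the immobilized limbs of replicates 2, 3 and 6, against 83.1, 92.4 and 38.9 CPM in control limbs (1.64 ± 0.56), with no overlap. In C57BL/6J 3 members had an unadjusted p under 0.05 (4.88% of all genes), Loxl1 (0.74 ± 0.24) and Adamts2 (0.53 ± 0.24) higher and Plod3 (-0.41 ± 0.17) lower. In WSB/EiJ it was 1, Colgalt1 (-0.34 ± 0.13; 6.43% of all genes), and in NZO/HlLtJ 1, Pcolce2 (3.07 ± 1.08; 2.17%). The median member log2 change was 0.47 in 129S1/SvImJ, 0.22 in C57BL/6J, 0.21 in NZO/HlLtJ and 0.053 in WSB/EiJ. In C57BL/6J it was -0.0076 without replicate 4, and in NZO/HlLtJ -0.28 without replicate 5 and 0.66 without replicate 4. In WSB/EiJ it lay between 0.0089 and 0.15 without 1 of the mice.

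The NZO/HlLtJ mice went different ways. Lox had 258.3, 346 and 74.6 CPM in the immobilized limbs of replicates 4, 5 and 6, against 586, 32.6 and 53.4 CPM in control limbs. Fkbp10 had 197.4, 140.8 and 62.3 CPM in immobilized limbs, against 357.9, 30.8 and 54.8 CPM in control limbs. Replicate 4 was thus lower in the cast limb and replicate 5 higher, and over all 40 members 6 were higher in the immobilized limb of replicate 4 (median log2 change -0.60), 39 in that of replicate 5 (1.49) and 25 in that of replicate 6 (0.080). Col1a1 did not follow in replicate 4, where its own log2 change was 0.11. Skeletal muscle markers had a median log2 change of -5.17 in that mouse, and the part of cell content in its values was not tested.

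The single A/J pair had 2 members lower, Adamts2 (-1.87 ± 0.43, FDR 0.0293) and Loxl2 (-3.52 ± 0.91, FDR 0.0427), where 1.28% of all genes were lower; 18 members were lower at an unadjusted p under 0.05, against 11.6% of all genes. Adamts2 stood at 95.6 CPM in the immobilized limb and 349.6 CPM in the control limb of that mouse, and Loxl2 at 58.6 and 671 CPM. The error of this strain is taken from the spread of the other strains, since 1 mouse has none of its own. The immobilized limbs of the A/J mice without a usable control limb held 193.4 and 110.7 CPM of Adamts2 and 80.0 and 42.6 CPM of Loxl2, so that the 3 immobilized limbs lay on the same side of the 1 control limb. That control library was 1 of the 2 whose members stood high, and its osteoblast markers summed to 10930 CPM, the highest of the 22 control libraries. Other markers moved within the pair as well. At an unadjusted p under 0.05, 7 of 8 neutrophil markers were higher (median 2.37), against 13.4% of all genes. Lower at that p were 7 of 8 adipocyte (median -3.05), 4 of 8 B cell (median -1.67) and 6 of 15 skeletal muscle markers (median -4.85), against 11.6% of all genes. Their part in the members' values was not tested.

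**Figure D3:**
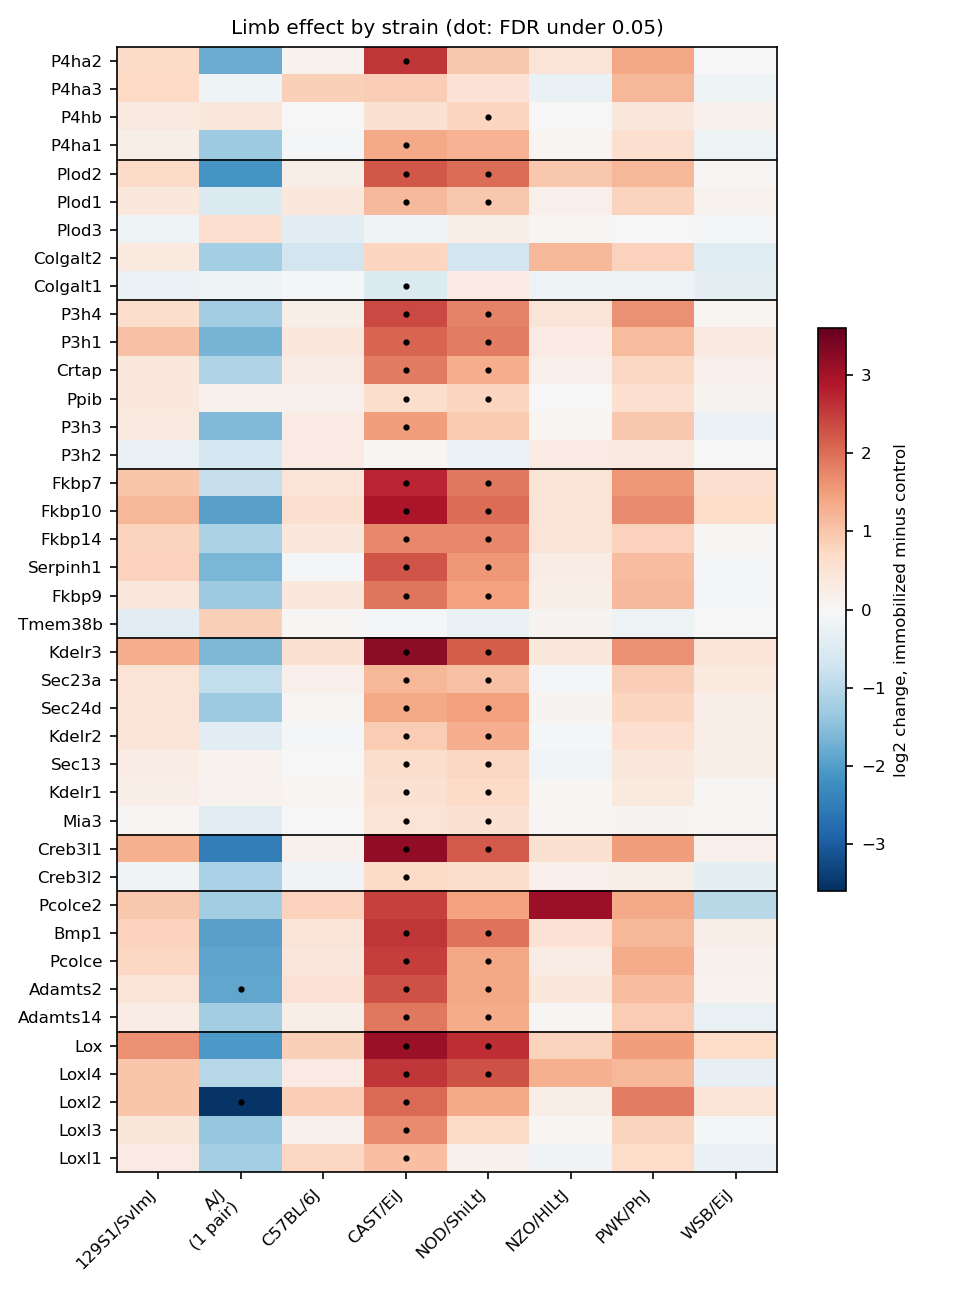
Log2 change of each member (down the page, by role), immobilized over control limb, in each strain (across); colour gives the edgeR estimate and a dot marks an FDR under 0.05. CAST/EiJ carries 33 dots and NOD/ShiLtJ 26, A/J (1 pair) 2, and the other 5 strains none.

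Whether strains differed in the limb effect was tested directly, by the F test of the 7 differences among the 8 strains. It called 12 members, against 2.5% of all genes: Adamts2 (F 13.9, FDR 0.0102), Creb3l1 (F 9.65, FDR 0.0223), Bmp1 (F 9.12, FDR 0.0231), Crtap (F 8.98, FDR 0.0231), Fkbp9, Pcolce, Adamts14, Fkbp10, Kdelr3, P3h1, Fkbp7 and P3h3. At an unadjusted p under 0.05 the count was 32, against 20.6% of all genes. For Adamts2 the log2 changes were 2.30 in CAST/EiJ, 1.38 in NOD/ShiLtJ, 1.11 in PWK/PhJ and -1.87 in A/J. The count changed when 1 mouse was left out: without the A/J mouse edgeR called 0 members, 29 with an unadjusted p under 0.05, and the largest count, 28, came without NZO/HlLtJ replicate 5. The shares of all genes in these fits are not given here, so the changes cannot be read as particular to the members. The count also moved by over 1.5 times without C57BL/6J replicate 1 (4) or 6 (6), CAST/EiJ replicate 3 (1) or 4 (1), NZO/HlLtJ replicate 4 (20) or 6 (7), PWK/PhJ replicate 4 (7) and WSB/EiJ replicate 4 (4) or 5 (7).

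Within most mice the members shared a sign. In the 22 mice, the number of members higher in the immobilized limb ran from 6 of 40, in A/J replicate 1 and NZO/HlLtJ replicate 4, to 39 of 40, in NZO/HlLtJ replicate 5 and PWK/PhJ replicate 3. The median member log2 change was 1.14, 2.08 and 1.85 in the CAST/EiJ replicates 2, 3 and 4, and 1.10, 0.77 and 1.61 in the NOD/ShiLtJ replicates 4, 5 and 6. It was 0.020, 0.21 and 0.050 in the WSB/EiJ replicates 2, 4 and 5, so that all 3 WSB/EiJ mice lay below all 6 CAST/EiJ and NOD/ShiLtJ mice. The same held for the 129S1/SvImJ replicates 2, 3 and 6 (0.57, 0.30 and 0.69) and the C57BL/6J replicates 1, 4 and 6 (0.06, 0.65 and 0.0). Creb3l1 and Kdelr2 had the sign of Col1a1 in 21 of 22 mice, and Serpinh1, Plod2, Fkbp14 and Loxl4 in 20. The fewest were 7 for Colgalt1, 9 for P3h2, 11 for Tmem38b and 12 for Plod3. Outside the members, the osteoblast marker Smpd3 had that sign in 22 mice, and the osteoblast markers Bglap and Ifitm5 and the COPII gene Sec31a in 20. The share of all genes with that sign is not given here. Col1a1 itself moved little in some mice, such as C57BL/6J replicate 1 (-0.0) and NZO/HlLtJ replicate 6 (0.06), where its sign carries little. The median over the 23 general ER genes lay between -0.26, in C57BL/6J replicate 1, and 0.52, in A/J replicate 1, and in A/J it had the sign opposite to the members' median of -1.18.

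**Figure D4:**
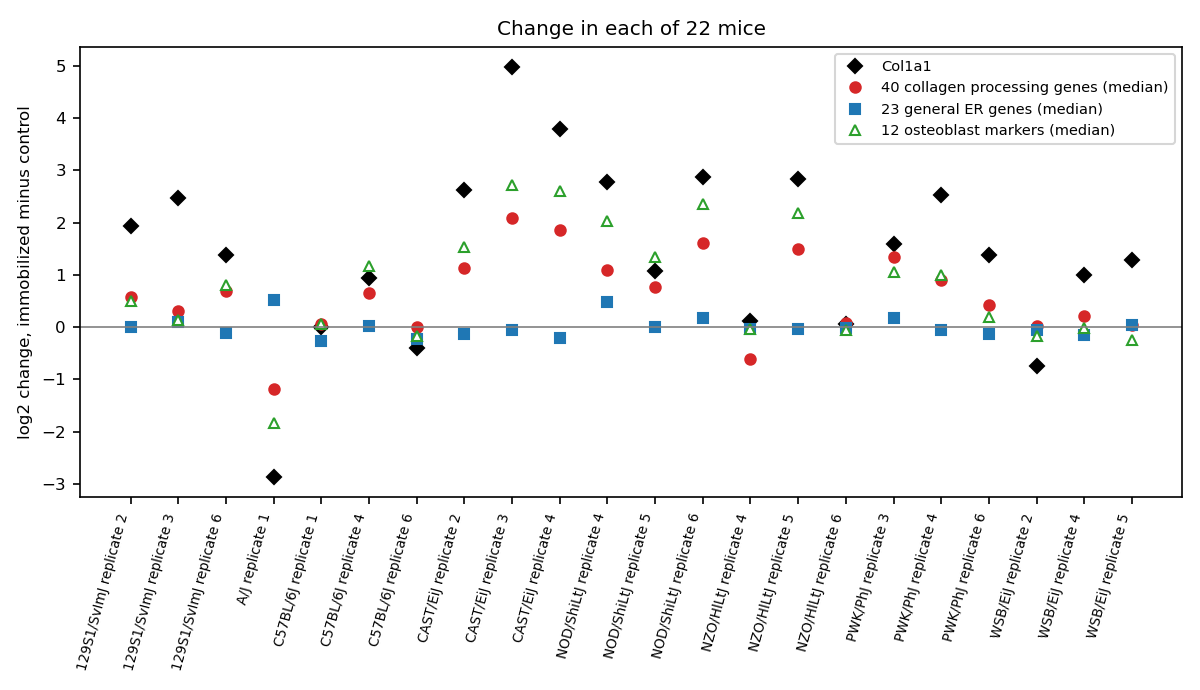
Log2 change, immobilized over control limb (CPM + 0.5), in each of 22 mice, for Col1a1 (diamonds) and for the medians of the 40 members (circles), 23 general ER genes (squares) and 12 osteoblast markers (triangles). Circles, diamonds and triangles lie far above 0 in CAST/EiJ and NOD/ShiLtJ and below 0 in A/J, while squares stay between -0.26 and 0.52.

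Levels among strains were compared within each limb. In immobilized limbs (24 libraries), 32 of 40 members differed among strains by the F test, against 50.3% of all genes; in control limbs (22 libraries), 8 members did, against 40.6%. Reads of all strains were assigned to the mm10 genome, which derives from C57BL/6J, and the part of sequence differences between strains in these levels was not tested. In immobilized limbs the 10 smallest FDRs were those of Colgalt1 (0.000509), Plod2 (0.00183), Bmp1 (0.0021), Loxl2 (0.00238), P3h1 (0.00288), Plod3 (0.0029), Mia3 (0.00295), Creb3l1 (0.00511), Adamts2 (0.00519) and P3h3 (0.00537). In control limbs those called were Loxl2 (0.00115), Plod3 (0.00186), Adamts14 (0.0242), Adamts2 (0.029), P3h2 (0.0314), Tmem38b (0.0336), Creb3l1 (0.0381) and Plod1 (0.0477).

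NOD/ShiLtJ immobilized limbs carried the most of this machinery: 30 members were higher than the mean of the other 7 strains, where 12.7% of all genes were, with a median difference of 1.08 on the log2 scale. Loxl2 had 248.5, 187.6 and 1189 CPM there (difference 2.49 ± 0.39, FDR 0.000252), and the highest of the 3, replicate 6, stood far from the other two. Colgalt1 had 141.3, 130.6 and 128.2 CPM in NOD/ShiLtJ immobilized limbs, above each of the other 21 immobilized limbs, of which the highest was at 118.7 CPM (difference 0.57 ± 0.094, FDR 0.000423). In CAST/EiJ immobilized limbs 10 members were higher, where 11.1% of all genes were. Plod2 had 232.6, 663 and 610 CPM there (1.73 ± 0.33, FDR 0.000619), and Pcolce2 10.6, 35.4 and 20.6 CPM (2.09 ± 0.52, FDR 0.00685). The others were Mia3, Bmp1, Adamts2, Pcolce, Creb3l1, Adamts14, P3h3 and Sec24d. Summed osteoblast markers were also highest in these strains' immobilized limbs, at medians of 15590 CPM in NOD/ShiLtJ and 13010 CPM in CAST/EiJ, against 4434 to 8370 CPM in the other 6 strains.

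In control limbs CAST/EiJ stood low: 7 members were lower than the mean of the other 7 strains, where 9.57% of all genes were. Plod1 had 34.2, 32.6 and 31.0 CPM there (-0.73 ± 0.21, FDR 0.0212), Fkbp7 10.9, 10.1 and 10.4 CPM (-1.63 ± 0.52, FDR 0.0328) and Kdelr3 the levels given above (-1.75 ± 0.61, FDR 0.0499). Adamts2 (-1.02 ± 0.31), Tmem38b (-0.55 ± 0.17), Adamts14 (-0.69 ± 0.24) and Creb3l1 (-1.45 ± 0.50) were lower too. Adamts2, Adamts14 and Creb3l1 were thus low in the control limbs of CAST/EiJ and high in its immobilized limbs, relative to the other strains. Since the same control libraries enter the limb effect of CAST/EiJ, the low control level and the large limb effect are not separate evidence. Summed osteoblast markers were at 2445 to 3752 CPM in CAST/EiJ control limbs, within the 1245 to 10930 CPM of all control limbs.

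Plod3 differed among strains in both limbs. It was lower in PWK/PhJ, at 75.7, 43.1 and 48.8 CPM in immobilized limbs (-0.62 ± 0.13, FDR 0.00204) and 47.4, 52.6 and 61.4 CPM in control limbs (-0.68 ± 0.14, FDR 0.00209), where 8.02% and 6.55% of all genes were lower. In control limbs it was higher in C57BL/6J, at 95.4, 112 and 118.7 CPM (0.50 ± 0.12, FDR 0.0181), where 5.83% of all genes were, and in WSB/EiJ, at 120.9, 108 and 85.3 CPM (0.43 ± 0.13, FDR 0.0488), where 4.2% were. Plod3 shares 11.9% of its exon bases with other genes, mostly Znhit1 on the opposite strand. In PWK/PhJ, Ppib was higher in immobilized limbs (0.69 ± 0.15, FDR 0.00265; 10.7% of all genes), and P3h2 (-0.97 ± 0.25, FDR 0.0121) and Mia3 (-0.35 ± 0.11, FDR 0.032) were lower in control limbs. In 129S1/SvImJ immobilized limbs Colgalt1 (-0.40 ± 0.10, FDR 0.015) and Plod3 (-0.44 ± 0.13, FDR 0.0363) were lower, where 3.14% of all genes were.

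In A/J immobilized limbs P3h1 was lower, at 26.4, 49.2 and 21.7 CPM (-1.31 ± 0.36, FDR 0.02; 4.46% of all genes), and Tmem38b higher (0.58 ± 0.18, FDR 0.0394; 9.22%). The single A/J control limb was higher in Loxl2 (3.50 ± 0.51, FDR 0.000713; 1.39% of all genes). NZO/HlLtJ had 0 members called by edgeR in either limb (6.81% of all genes in immobilized and 4.61% in control limbs), with 4 at an unadjusted p under 0.05 in immobilized (20.6% of all genes) and 6 in control limbs (16.5%). In C57BL/6J and WSB/EiJ immobilized limbs it was 0 too (7.75% and 8.05% of all genes), with 4 and 3 members at an unadjusted p under 0.05 (23.7% and 21% of all genes), and in NOD/ShiLtJ and 129S1/SvImJ control limbs 0 (10.8% and 6.49%), with 1 and 6 at that p (21.5% and 22.3%). The count in the control comparison changed when single libraries were left out, and the shares of all genes in those fits are not given here. In place of 8 members, 32 differed among strains in control limbs without NZO/HlLtJ replicate 4, whose members stood high. The count was 22 without NZO/HlLtJ replicate 5, and 3 without CAST/EiJ replicate 4. It was 4 or 5 without any 1 of the control libraries of 129S1/SvImJ replicates 2, 3 and 6, A/J replicate 1, C57BL/6J replicates 4 and 6, CAST/EiJ replicates 2 and 3, PWK/PhJ replicates 3, 4 and 6 and WSB/EiJ replicate 4.

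**Figure D5:**
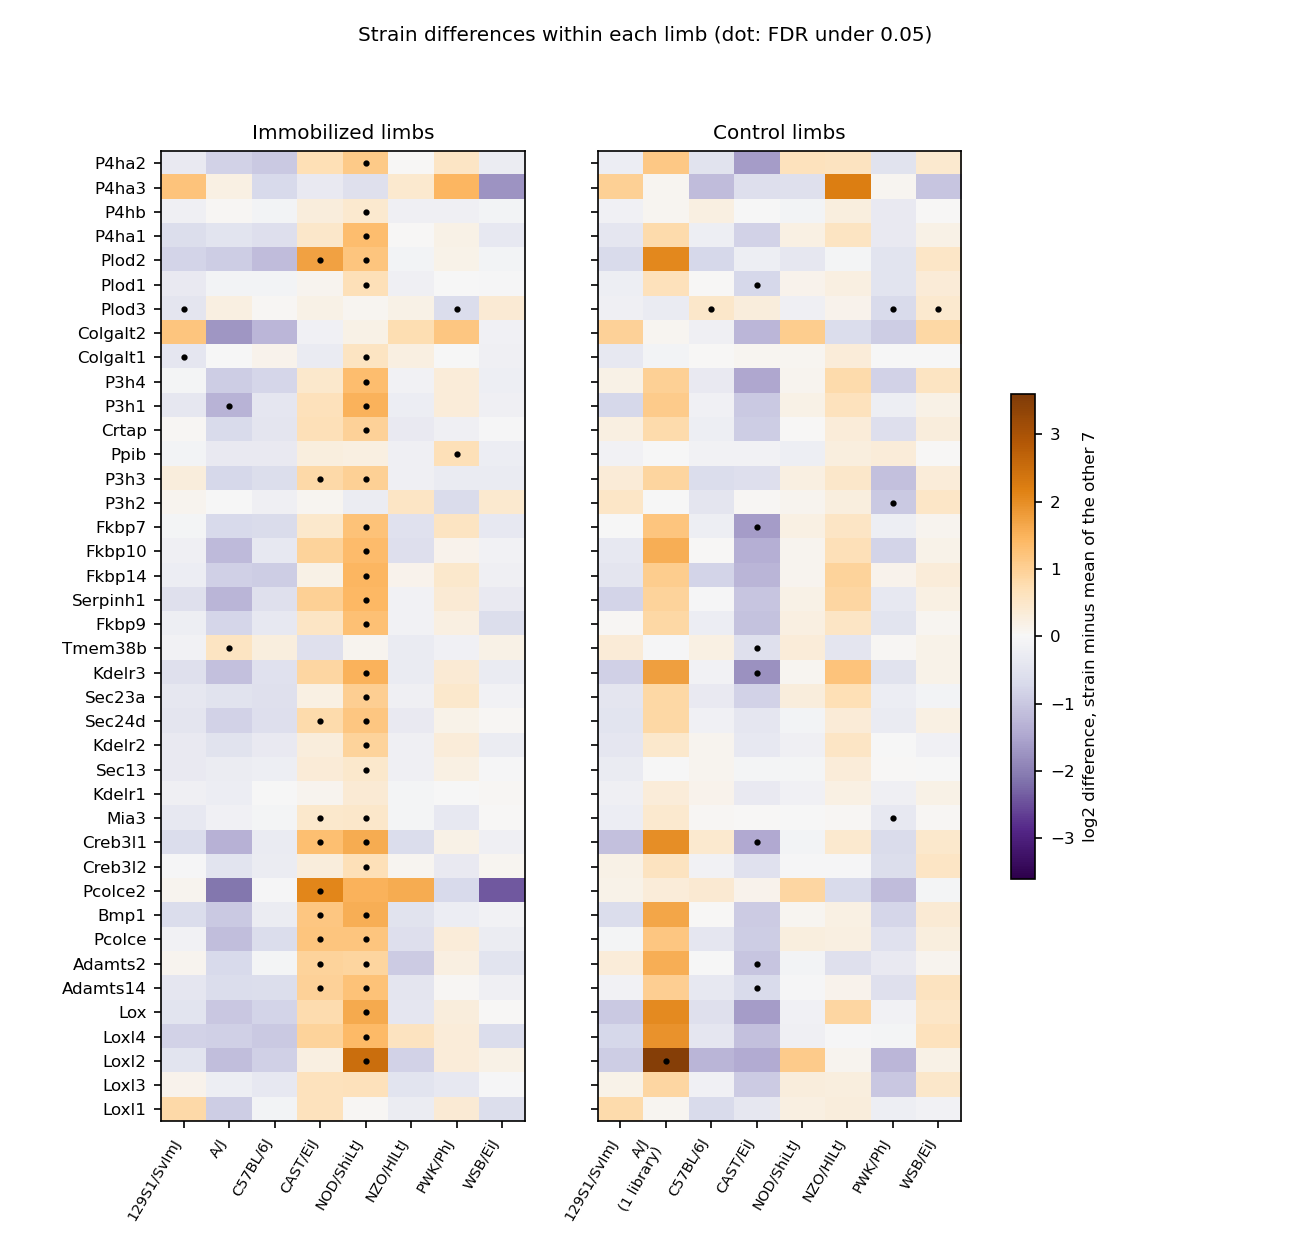
Difference in log2 level between each strain and the mean of the other 7 for every member (down the page, by role), in immobilized limbs (left panel) and control limbs (right panel); a dot marks an FDR under 0.05. NOD/ShiLtJ carries 30 dots and CAST/EiJ 10 in immobilized limbs, and CAST/EiJ 7 in control limbs, all on negative differences.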

How the data were processed

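The authors deposited raw read counts per gene for 48 libraries of paired-end NovaSeq reads (TruSeq Stranded mRNA kit, per the labels' protocols). Per the submitters' processing notes, mm10, featureCounts and DESeq2 were used; for the aligner, annotation and strand setting nothing is given in the sources used here. Genes were tested after filterByExpr with TMM scaling in edgeR 4.0.16 (R 4.3.3), robust quasi-likelihood, FDR 0.05 over all genes tested. The paired model had a term for each of 22 mice and a limb term for each strain; pairing comes from the series design, which takes both limbs from each mouse (same-mouse deviations correlated at a median r of 0.089 over 21 mice). Strain tests used 24 immobilized and 22 control libraries. CPM and per-mouse log2 changes (CPM + 0.5) were computed from the counts; DESeq2 1.42.0, RLE scaling, no filter, all 48 libraries, no mouse block, a common limb term, marker covariates and single mice left out were tried. Coordinates and exon lengths are from GENCODE M21. The code was tested on simulated data. In the paired model, p-values and standard errors measure how far the limb differences of mice of the same strain spread. The term for each mouse takes out differences in level between mice. The strains were taken as given, so the error of the mean limb effect leaves out the spread of that effect between strains. In the strain tests within a limb, p-values measure the spread between mice of the same strain.

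Named were members past the FDR, the 2 members of each role with the largest change and, for each strain, up to 10 with the smallest FDR; genes at an unadjusted p under 0.05 in strains without a call were named after their values were seen. The members, lists and tests were chosen with earlier results of these data known. The near-empty A/J control libraries of replicates 2 and 5 were left out. Intervals of counting error are not given, since replicates show the spread.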

Additional observations from a re-analysis of the deposited data

Results flagged for a closer look

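For 12 members the F test of the differences among 8 strains in the limb effect passed an FDR of 0.05, that is, the effect of the cast differed between strains by a test of the difference itself. F was 13.9 for Adamts2, 9.65 for Creb3l1, 9.12 for Bmp1, 8.98 for Crtap, 7.88 for Fkbp9 and 7.74 for Pcolce. It was 7.58 for Adamts14, 7.44 for Fkbp10, 6.57 for Kdelr3, 6.51 for P3h1, 6.00 for Fkbp7 and 5.90 for P3h3. All 12 had positive estimates in CAST/EiJ, NOD/ShiLtJ and PWK/PhJ and negative ones in the A/J pair. Without that pair edgeR called 0 of them, and 29 of the 40 members had an unadjusted p under 0.05. The share of all genes in that fit is not given here.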

How the results depend on the processing

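The 24 members called higher on average became 27 under DESeq2, 20 under RLE scaling, 25 with all 48 libraries, 24 with a common limb term, 22 with the skeletal muscle covariate, 17 with no filter on low counts, 14 with no replicate block in place of the mouse terms, 1 with the osteoblast covariate and 0 over the 6 strains other than CAST/EiJ and NOD/ShiLtJ (10 at an unadjusted p under 0.05; chosen after seeing the data); leaving out 1 mouse gave 19 to 33 higher and 0 to 1 lower. DESeq2 and RLE scaling each called 1 member lower, Colgalt1. Of all genes, 7.43% were called in either direction in the main fit and 10.4% under DESeq2. It was 2.91% with no filter, 5.57% with no replicate block, 0.261% with the osteoblast covariate and 0.172% over the 6 strains. In CAST/EiJ 0 members were lower with no replicate block and 0 with the osteoblast covariate. That covariate also gave 0 higher there (0.0415% of all genes called) and in NOD/ShiLtJ (0%). Leaving out 1 mouse gave 16 to 29 higher and 0 lower in CAST/EiJ, 0 to 23 higher in NOD/ShiLtJ and 0 to 4 in PWK/PhJ. In PWK/PhJ, DESeq2 called 12 (0.74% of all genes called) and the muscle covariate 4 (0.278%). The 2 members lower in A/J became 8 under DESeq2 (9.26% of all genes called in either direction) and 1 with no filter (1.2%). The count was 0 with all 48 libraries (5.79%), no replicate block (0.166%), the osteoblast covariate (0.0474%) or the muscle covariate (0.0829%). The 12 members whose limb effect differed among strains became 30 under DESeq2, where 11.8% of all genes were called, against 2.5% in edgeR. The count was 0 with no replicate block (0.00592% of all genes) or the osteoblast covariate (0%), and 0 to 28 without 1 mouse. The 8 that differed in control limbs became 18 under DESeq2 (54.9% of all genes) and 4 with the muscle covariate (25.3%). With the osteoblast covariate it was 22 (46.6% of all genes), of which 6 were among the 8. Without 1 library it was 3 to 32, and the 32 in immobilized limbs stayed between 22 and 35. The causes of these changes were not tested, and strain effects were refitted only without that strain's own mice. Shares of all genes are not given here for fits without 1 mouse or library, nor at an unadjusted p for the other settings. Changes of those counts therefore cannot be read as particular to the members.

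Some single members changed sign. Over the other 6 strains this held for Adamts14 (-0.0034), Mia3 (-0.025), P3h2 (0.0097), P3h3 (-0.021) and P4ha1 (-0.11). With the osteoblast covariate it held for Colgalt2 (-0.80), Loxl2 (-0.019), Loxl3 (-0.14), P3h3 (-0.047), P4ha1 (-0.30), P4ha2 (-0.18), Pcolce2 (-0.16), Plod2 (-0.075), Plod3 (-0.021) and Serpinh1 (-0.068). With all 48 libraries it held for Creb3l2 (0.026) and P3h2 (0.0038), with a common limb term for Creb3l2 (0.11), P3h2 (0.044), Plod3 (-0.032) and Tmem38b (-0.054), and with the muscle covariate for Creb3l2 (0.14), P3h2 (0.12) and Plod3 (-0.0034). Without 1 mouse the estimates ran from -0.19 to 0.20 for Colgalt2, -0.040 to 0.17 for Creb3l2, -0.071 to 0.077 for P3h2, -0.061 to 0.042 for Plod3 and -0.099 to 0.088 for Tmem38b. None of the members called higher on average turned sign under DESeq2, RLE scaling or no filter. Low counts limit Pcolce2, P4ha3 and Colgalt2, with 1 to 3 counts in their lowest usable library.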

Other observations

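Fkbp11, an ER prolyl isomerase that was not among the 40 members, had a smaller FDR in the mean limb test than any of them (0.000884). Its lowest, median and highest levels were 6.43, 18.9 and 55.3 CPM in immobilized limbs and 4.86, 8.50 and 55.3 CPM in control limbs, and it was higher in 18 of 22 mice. By strain its log2 change was 2.22 ± 0.35 in CAST/EiJ (FDR 0.000875), 2.01 ± 0.35 in NOD/ShiLtJ (FDR 0.00785), 1.78 ± 0.36 in PWK/PhJ (FDR 0.0981), 1.35 ± 0.36 in 129S1/SvImJ (FDR 1), 1.06 ± 0.35 in WSB/EiJ (FDR 0.661), 0.34 ± 0.35 in C57BL/6J (FDR 0.979), -0.16 ± 0.36 in NZO/HlLtJ (FDR 1) and -0.24 ± 0.60 in the A/J pair (FDR 0.866). In single mice it ran from -1.38 to 2.83.

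In the NZO/HlLtJ replicate 4 mouse the 40 members summed to 5426 CPM in the immobilized and 8726 CPM in the control limb, with a median member log2 change of -0.60, while the 12 osteoblast markers had a median of -0.030 and Col1a1 a change of 0.11. In the A/J pair the members' median of -1.18 stood beside -1.84 for osteoblast markers and -2.86 for Col1a1.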
